A study of Homo sapiens with 8 samples.

Results

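The plasminogen activator system was followed through 6 genes, PLAU, PLAUR, PLAT, SERPINE2, SERPINB2 and SERPINB5, chosen by name out of the 48162 genes listed for each library. All 6 were found as single protein-coding genes. Plasminogen circulates as an inactive precursor and is cut to the broad protease plasmin by urokinase, the product of PLAU, or by tissue-type plasminogen activator, the product of PLAT. PLAUR encodes the membrane-anchored receptor that holds urokinase at the cell surface, where plasmin degrades matrix and activates other proteases. Serpins trap these enzymes in stable complexes that endocytic receptors then clear, and the system is best known in squamous epithelium and its carcinomas for its part in migration, wound repair and invasion.

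The libraries came from total RNA of KYSE450 and KYSE70, established human esophageal squamous cell carcinoma (ESCC) lines kept at passages 5 to 10. In each line the long noncoding RNA NMR was knocked down (shRNA libraries) beside an shRNA control, or overexpressed beside a control, which gives 8 libraries and 1 per line in each of the 4 groups. The labels' protocols describe lentivirus, packaged in HEK 293T cells, for knockdown and transfection of a pcDNA3.1 plasmid for overexpression; each control was taken with its manipulation, so the lentiviral and the plasmid arm hold 4 libraries each. No other allele or agent is given, whether NMR was changed by these treatments was not analysed here because no gene of that name is listed, and nothing says that libraries came from separate cultures, so the p-values reflect no more than how these libraries vary. Values were treated as FPKM, reads scaled to gene length and to library size. The reads recovered from them ran between 26401805 and 37937856 per library, so that 1 read on a gene of 1 kb was worth 0.0264 to 0.0379 FPKM. All 7 squamous markers were detected, with summed levels of 9573 to 25705 FPKM in KYSE450 and 7401 to 15364 FPKM in KYSE70. KRT5 and KRT6A made up most of these sums. Single markers differed between the lines, KRT14 the most, with 371 to 1211 FPKM in KYSE450 and 3.20 to 38.3 FPKM in KYSE70. All 4 leukocyte markers stayed under 1 FPKM. The endothelial markers, 2 of 3 listed, summed to 0.733 to 4.29 FPKM in KYSE450 and 0.875 to 1.93 FPKM in KYSE70, and the 4 fibroblast markers to 31.9 to 39.3 FPKM in KYSE450 and 26.9 to 52.1 FPKM in KYSE70. For a check of each line, genes were taken that were high in all its libraries and near absent in the other line's plasmid libraries. There were 15 such genes for KYSE450 and 3 for KYSE70. Their low level in those plasmid libraries was fixed by that choice. In the other line's lentiviral libraries, the median gene stood at 0% to 0.357% of its level in its own line. The lines are the only replicates of a treatment, and each is a single established culture.

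Levels spanned more than 2 orders of magnitude between the 6 genes on the FPKM scale. SERPINB5 was the most abundant, with 78.6 ± 21.0 FPKM over all libraries (SD, n = 8), followed by SERPINE2 with 37.0 ± 20.0 FPKM and PLAUR with 8.80 ± 4.79 FPKM. PLAU averaged 1.65 ± 1.84 FPKM, SERPINB2 0.867 ± 1.17 FPKM and PLAT 0.523 ± 0.240 FPKM. Pooled over the lines, the ranges of SERPINB5 and SERPINE2 overlapped (48.7 to 116 and 12.4 to 73.6 FPKM). Those of SERPINE2 and PLAUR overlapped between 12.4 and 16.6 FPKM, though SERPINE2 stood above PLAUR within every library. The 3 lowest genes could not be ordered over both lines. Of these, PLAU was the highest in every KYSE450 library and the lowest in every KYSE70 library. A mean of at least 1 FPKM, the limit for testing, was met by 4 of the 6 genes. SERPINB2 and PLAT lay below it, and PLAU met it through KYSE450 alone.

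**Figure D1:**
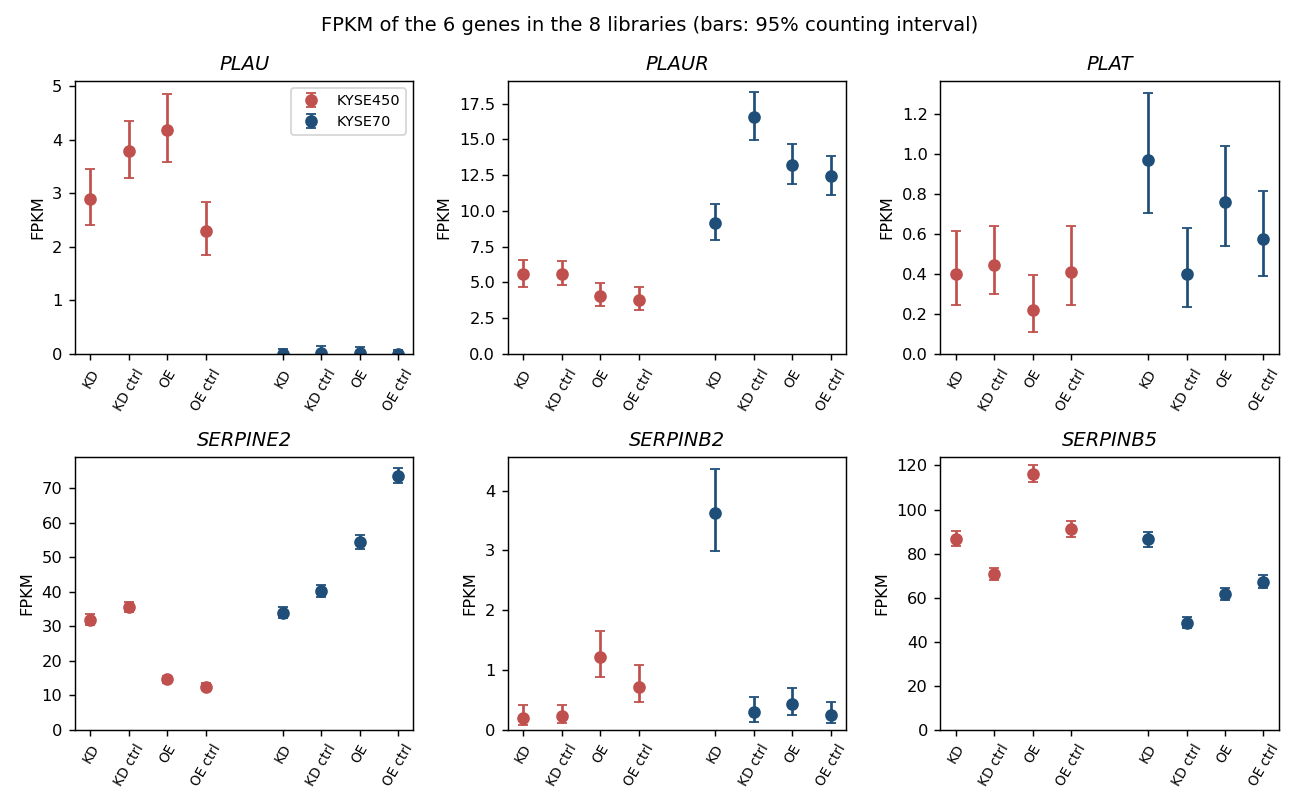
FPKM (y axis, from 0) of each of the 6 genes in the 8 libraries, with KYSE450 in red and KYSE70 in blue; KD is knockdown, OE is overexpression, ctrl is the control of each, and bars are 95% counting intervals. PLAU is near 0 in every KYSE70 library, SERPINB2 stands out at 3.62 FPKM in the KYSE70 knockdown, and SERPINE2 runs in opposite directions from knockdown to overexpression in the lines.

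The promoters of the genes the results turn on are shown for their regulatory letters. They are RefSeq windows on GRCh38.p14 from 250 bases before to 50 bases after an annotated start, read 5′ to 3′ along the gene's strand. PLAT was left out, and the other 5 of the 6 genes have 7 windows among them. Capitals mark TGANTCA, the core of an AP-1 site, in PLAUR, SERPINB2 and SERPINB5. In PLAU they mark the GC box GGGCGG, and in SERPINE2 the CCAAT box, which appears as ATTGG where it lies on the other strand. Copies of GGGCGG in the SERPINE2 and SERPINB5 windows are left in lower case. PLAU lies at chr10:73910882-73911181 on the plus strand, PLAUR at chr19:43670120-43670419 on the minus strand and SERPINE2 at chr2:224031429-224031728 on the minus strand. SERPINB2 lies at chr18:63887455-63887754 and SERPINB5 at chr18:63476708-63477007, both on the plus strand.
PLAU: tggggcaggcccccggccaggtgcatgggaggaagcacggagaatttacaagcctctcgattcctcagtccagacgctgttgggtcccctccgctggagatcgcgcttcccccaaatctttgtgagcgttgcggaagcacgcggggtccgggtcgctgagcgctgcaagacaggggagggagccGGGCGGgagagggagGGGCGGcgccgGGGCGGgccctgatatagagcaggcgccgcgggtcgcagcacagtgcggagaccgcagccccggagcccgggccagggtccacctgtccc
PLAUR: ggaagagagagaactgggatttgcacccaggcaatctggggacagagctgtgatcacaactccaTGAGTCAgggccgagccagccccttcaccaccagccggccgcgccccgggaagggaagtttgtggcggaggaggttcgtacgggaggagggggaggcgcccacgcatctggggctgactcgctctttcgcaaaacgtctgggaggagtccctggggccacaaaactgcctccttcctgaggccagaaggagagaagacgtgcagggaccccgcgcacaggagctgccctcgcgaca
SERPINE2: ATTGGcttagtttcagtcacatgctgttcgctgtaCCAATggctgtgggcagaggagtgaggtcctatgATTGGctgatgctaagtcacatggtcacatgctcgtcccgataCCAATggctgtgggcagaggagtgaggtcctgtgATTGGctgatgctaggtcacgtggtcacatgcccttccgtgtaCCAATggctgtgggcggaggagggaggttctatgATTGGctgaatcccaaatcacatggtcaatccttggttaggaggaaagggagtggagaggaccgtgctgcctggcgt
SERPINB2: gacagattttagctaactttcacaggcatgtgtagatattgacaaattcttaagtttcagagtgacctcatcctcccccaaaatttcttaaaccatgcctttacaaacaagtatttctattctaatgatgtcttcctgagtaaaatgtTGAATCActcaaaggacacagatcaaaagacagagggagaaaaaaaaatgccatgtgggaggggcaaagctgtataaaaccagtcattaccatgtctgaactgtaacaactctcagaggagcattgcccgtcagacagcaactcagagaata
SERPINB5: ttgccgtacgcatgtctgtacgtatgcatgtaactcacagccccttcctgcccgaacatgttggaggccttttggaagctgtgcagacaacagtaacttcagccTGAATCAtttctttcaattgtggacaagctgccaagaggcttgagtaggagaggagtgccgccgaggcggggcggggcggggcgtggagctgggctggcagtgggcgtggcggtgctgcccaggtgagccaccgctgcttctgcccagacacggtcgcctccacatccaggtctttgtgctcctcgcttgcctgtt
Both strands of all 35116 windows of this length were searched. TGANTCA, which reads alike on both strands, was present in 7.71% of them, and it starts 186 bases before the start in PLAUR, 102 in SERPINB2 and 146 in SERPINB5. At least 1 copy of GGGCGG was present in 45.0% of windows. PLAU holds 3 copies within 66 bases before its start, the SERPINB5 window shown holds 2 and the SERPINE2 window shown holds 1. At least 1 copy of CCAAT was present in 34.6% of windows, and the SERPINE2 window holds 7 copies on alternating strands. The letters around these copies repeat along the window, so the 7 are not independent of each other. The share of windows with several copies of a motif was not counted. SERPINB2 also has TATAAA, present in 11.5% of windows, 30 bases before its start. PLAU and SERPINE2 have 2 windows each, and the one with more copies of the marked motif is shown, chosen after the search. The other PLAU window holds 0 copies of GGGCGG, and the other SERPINE2 window holds 0 copies of CCAAT and 2 of GGGCGG. A match describes these letters only, and which start these cells used was not measured.

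A gene is called here where limma's p, adjusted over all genes tested by Benjamini and Hochberg, was under 0.05, and differences are on log2(FPKM + 1). Between the lines, 3 of the 4 tested genes were called, as were 66.0% of all 14311 genes tested (33.8% higher and 32.3% lower in KYSE450), so 3 of 4 is near the share of all genes. PLAU met the limit of a mean of 1 FPKM only through KYSE450, the line where it is high, so its place in that count is a description; PLAUR, SERPINE2 and SERPINB5 met it in both lines, and 2 of these 3 were called. PLAU was higher in KYSE450, whereas PLAUR and SERPINE2 were lower there. The RNA levels of PLAU and PLAUR differed in opposite directions: the line with PLAU reads had less PLAUR, and the line with more PLAUR had almost no PLAU. As similar shares of all genes were called higher and lower, opposite directions for a pair of genes are a description only.

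PLAU (GRCh38 chr10:73909177-73917497, plus strand) encodes urokinase, the activator that works at the cell surface. In KYSE450 it stood at 2.90 FPKM after knockdown and 3.80 FPKM in its control, and at 4.19 FPKM after overexpression and 2.30 FPKM in its control. In KYSE70 it stood at 0 FPKM after knockdown, 0.0265 FPKM in its control, 0.0233 FPKM after overexpression and 0 FPKM in its control. The groups did not overlap: KYSE450 averaged 3.30 ± 0.856 FPKM and KYSE70 0.0124 ± 0.0144 FPKM (SD, n = 4 each). These levels rest on 591 reads in KYSE450 and 2 reads in KYSE70, a ratio per depth of 273 with a 95% counting interval of 75.4 to 2263. At a floor of 3 reads, a count of 0 allows up to 0.0794 FPKM in the KYSE70 knockdown and 0.0667 FPKM in the KYSE70 overexpression control, and the exact 95% counting intervals of these libraries reach 0.0977 and 0.0821 FPKM. In bulk RNA, fewer cells with a transcript and less transcript per cell cannot be told apart. The limma difference was 2.06 on log2(FPKM + 1) (SE 0.16, adjusted p = 9.4e-06), and the fit without a filter gave 2.06 (SE 0.18, adjusted p = 0.000309). Since KYSE70 was near 0, the size of the difference depends on the pseudocount, with 4.89 at a pseudocount of 0.1. An antisense gene, C10orf55, shares 31.1% of the exon bases of PLAU; it was listed at 0 to 0.112 FPKM, and the sources used here do not say how shared reads were assigned.

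PLAT (chr8:42175233-42207724, minus strand), which encodes the tissue-type activator that acts on fibrin clots, was low everywhere. In KYSE450 it stood at 0.400 FPKM after knockdown and 0.446 FPKM in its control, and at 0.220 FPKM after overexpression and 0.410 FPKM in its control. In KYSE70 the values were 0.973 FPKM after knockdown and 0.398 FPKM in its control, and 0.760 FPKM after overexpression and 0.576 FPKM in its control. The lines overlapped, and with 79 reads in KYSE450 and 132 reads in KYSE70 the gene entered only the fit without a filter, over 35668 genes, where its difference was -0.28 (SE 0.13, adjusted p = 0.158).

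PLAUR (chr19:43646095-43670547, minus strand) encodes the urokinase receptor. In KYSE450 it stood at 5.57 FPKM after knockdown and 5.60 FPKM in its control, and at 4.07 FPKM after overexpression and 3.80 FPKM in its control. In KYSE70 it stood at 9.18 FPKM after knockdown and 16.6 FPKM in its control, and at 13.2 FPKM after overexpression and 12.4 FPKM in its control. Every KYSE450 library lay below every KYSE70 library. The log2 difference was -1.25 (SE 0.17, limma adjusted p = 0.000245), and summed reads gave 0.377 times the KYSE70 level (95% counting interval 0.339 to 0.418).

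SERPINE2 (chr2:223975112-224039319, minus strand) encodes protease nexin 1, an inhibitor of thrombin, urokinase and plasmin. In KYSE450 it stood at 31.8 FPKM after knockdown and 35.4 FPKM in its control, and at 14.6 FPKM after overexpression and 12.4 FPKM in its control. In KYSE70 it stood at 33.9 FPKM after knockdown and 40.2 FPKM in its control, and at 54.4 FPKM after overexpression and 73.6 FPKM in its control. The line ranges met in the lentiviral arm and lay far apart in the plasmid arm. Over both arms the log2 difference between KYSE450 and KYSE70 was -1.14 (SE 0.13, adjusted p = 8.8e-05).

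SERPINB5 and SERPINB2 both lie in the clade B serpin cluster on chromosome 18. SERPINB5 (chr18:63476761-63505085, plus strand) encodes maspin, an epithelial serpin that does not inhibit proteases in the usual serpin manner. In KYSE450 it stood at 86.7 FPKM after knockdown and 70.6 FPKM in its control, and at 116 FPKM after overexpression and 91.2 FPKM in its control. In KYSE70 it stood at 86.4 FPKM after knockdown and 48.7 FPKM in its control, and at 61.6 FPKM after overexpression and 67.1 FPKM in its control. The lines averaged 91.2 ± 18.9 FPKM in KYSE450 and 65.9 ± 15.7 FPKM in KYSE70 (SD, n = 4 each) and overlapped through the KYSE70 knockdown. The log2 difference was 0.47 (SE 0.18), with an adjusted p of 0.0503 in limma that narrowly missed the threshold. The gene passed with median-ratio scaling (adjusted p = 0.0396), with voom on recovered reads (0.0446) and without the KYSE70 knockdown, where the limma difference was 0.67 (adjusted p = 0.000876).

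SERPINB2 (chr18:63871692-63903890, plus strand) encodes the mostly intracellular plasminogen activator inhibitor type 2, which inhibits urokinase and tissue-type activator. In KYSE450 it stood at 0.203 FPKM after knockdown and 0.223 FPKM in its control, and at 1.22 FPKM after overexpression and 0.719 FPKM in its control. In KYSE70 it stood at 3.62 FPKM after knockdown and 0.288 FPKM in its control, and at 0.424 FPKM after overexpression and 0.242 FPKM in its control. A single library, the KYSE70 knockdown, held 113 of the 228 reads of the gene. The lines overlapped, and the fit without a filter gave a difference of -0.23 (SE 0.39, adjusted p = 0.686).

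**Figure D2:**
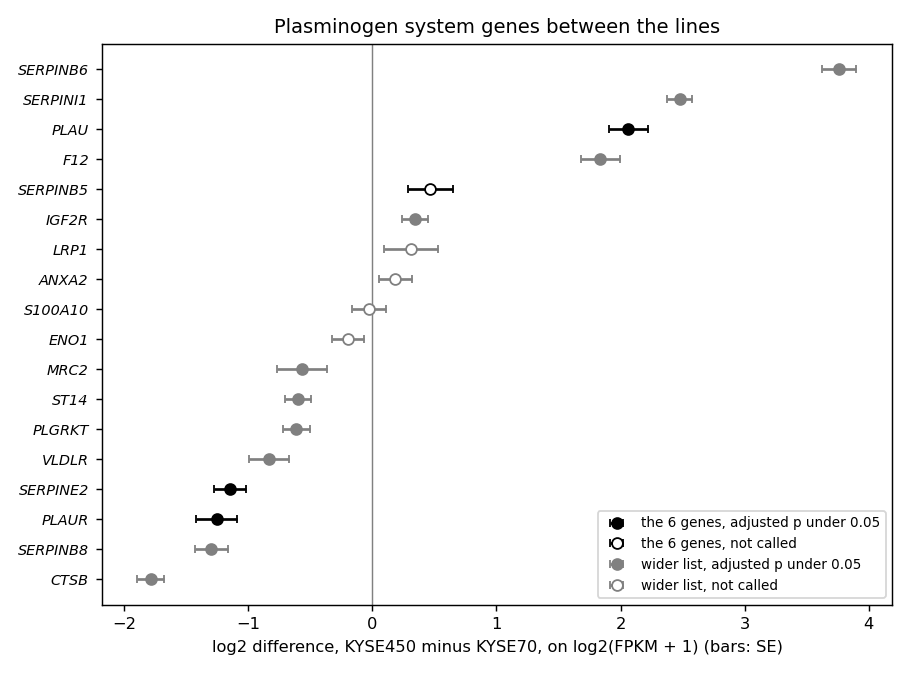
Difference between KYSE450 and KYSE70 on log2(FPKM + 1) (x axis, bars are SE) for the 4 tested genes in black and tested genes of a wider plasminogen list in grey; filled points have an adjusted p under 0.05. PLAU lies at 2.06, and SERPINE2 and PLAUR lie at -1.14 and -1.25.

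The wider list of activators, inhibitors, plasminogen-binding proteins and clearance receptors held 25 genes, of which VTN was not analysed here; 15 were tested and 9 were under a mean of 1 FPKM. PLG, the gene of plasminogen itself, was among those 9 at 0 to 0.168 FPKM. Between the lines, 11 of the 15 were called, beside 66.0% of all genes, 4 higher and 7 lower in KYSE450, with a median log2 difference of -0.20, against 0.02 over all genes tested. Higher in KYSE450 were SERPINB6, an intracellular protease inhibitor (log2 difference 3.76), SERPINI1, the neuroserpin gene whose product inhibits tissue-type activator (2.48), F12, the gene of coagulation factor XII (1.84), and IGF2R, the mannose 6-phosphate receptor gene (0.34). IGF2R lost its call without the KYSE70 overexpression control or without the KYSE450 overexpression library (adjusted p = 0.0682 to 0.0785). Lower in KYSE450, among those with the smallest adjusted p, were CTSB, the cathepsin B gene (-1.78), SERPINB8, a clade B serpin (-1.29), ST14, the gene of matriptase, which activates pro-urokinase (-0.60), and PLGRKT, a plasminogen receptor gene (-0.61). Of the 11, 3 met the limit for testing through 1 line only, SERPINI1 (5.83 FPKM in KYSE450 and 0.186 FPKM in KYSE70) and SERPINB8 (0.732 FPKM in KYSE450 and 3.38 FPKM in KYSE70) among them, so their place in the count is a description. The fit without a filter gave adjusted p = 2.32e-05 for SERPINI1 and 0.00103 for SERPINB8.

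The arms ask how far a level depends on the experiment a library belongs to, since delivery, the control construct and anything else that differed between the experiments cannot be told apart. Over both lines, 0 of the 4 tested genes were called between the lentiviral and the plasmid arm by limma, 0 had an unadjusted p under 0.05 and voom called 0, while 27.9% of all genes were called (19.0% higher and 8.95% lower in the lentiviral arm). Leaving out the KYSE70 knockdown brought 2 calls, PLAUR with 0.38 (adjusted p = 0.0140) and SERPINB5 with -0.39 (adjusted p = 0.0292), in a fit that called 37.0% of all genes. The difference between the lines in their arm contrast was called for 1 of 4 genes, SERPINE2, where 6.88% of all genes were called (1.60% higher and 5.28% lower).

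SERPINE2 was higher in the lentiviral arm of KYSE450, with 31.8 and 35.4 FPKM, than in its plasmid arm, with 14.6 and 12.4 FPKM. In KYSE70 it was lower in the lentiviral arm, with 33.9 and 40.2 FPKM, than in the plasmid arm, with 54.4 and 73.6 FPKM. The arms overlapped in neither line. Summed reads gave lentiviral-to-plasmid ratios of 2.50 in KYSE450 (95% counting interval 2.35 to 2.66) and 0.577 in KYSE70 (0.554 to 0.601). The arm contrast of KYSE450 exceeded that of KYSE70 by 2.02 on the log2 scale (SE 0.26, limma adjusted p = 0.0106), and as the directions opposed each other the contrast over both lines was 0.25 (SE 0.13, adjusted p = 0.174). The call was lost without the KYSE70 overexpression control (difference 1.81, adjusted p = 0.0577), the KYSE450 overexpression library (2.13, adjusted p = 0.0584) or the KYSE450 knockdown control (1.95, adjusted p = 0.0619). It was also lost when all 35668 genes entered without a filter (adjusted p = 0.0508).

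The other members gave smaller or less certain arm contrasts. PLAUR in KYSE450 had 5.57 and 5.60 FPKM in the lentiviral arm and 4.07 and 3.80 FPKM in the plasmid arm, a ratio of 1.42 (95% counting interval 1.18 to 1.70). In KYSE70 the PLAUR arms overlapped, at a ratio of 1.01 (0.899 to 1.12). SERPINB5 in KYSE450 had 86.7 and 70.6 FPKM in the lentiviral arm and 116 and 91.2 FPKM in the plasmid arm, a ratio of 0.744 (0.717 to 0.772). In KYSE70 the SERPINB5 arms overlapped, at a ratio of 1.05 (1.002 to 1.097). SERPINB2 in KYSE450 had 0.203 and 0.223 FPKM in the lentiviral arm and 1.22 and 0.719 FPKM in the plasmid arm, from 17 and 65 reads, a ratio of 0.219 (0.120 to 0.378). In KYSE70 SERPINB2 had 122 and 24 reads in the lentiviral and the plasmid arm, a ratio of 5.91 (3.79 to 9.57), and 113 of the 122 came from the knockdown library. Its arm difference between the lines was -1.56 in the fit without a filter (SE 0.78, adjusted p = 0.376). PLAU in KYSE450 overlapped between the arms, at a ratio of 1.04 (0.880 to 1.23).

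**Figure D3:**
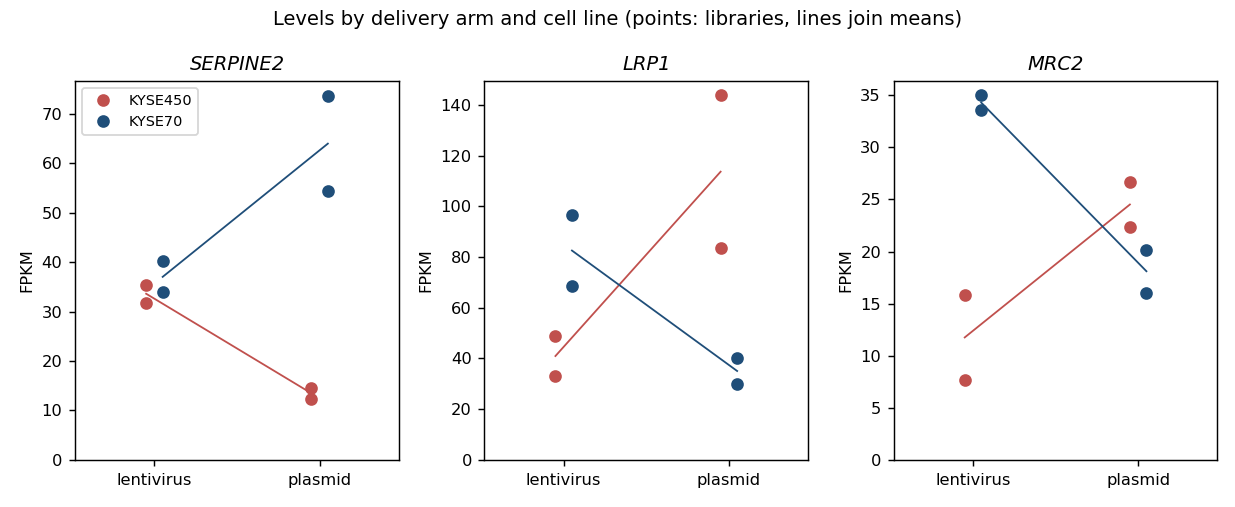
FPKM (y axes, from 0) of SERPINE2, LRP1 and MRC2 in the lentiviral and the plasmid arm, with KYSE450 in red and KYSE70 in blue; points are libraries and lines join the means of 2 libraries. The joining lines cross for LRP1 and MRC2 and part toward the plasmid arm for SERPINE2, which reaches 73.6 FPKM in KYSE70.

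In the wider list, 2 of 15 genes, beside 6.88% of all genes, were called for the difference between the lines in the arm contrast, both with the sign opposite to SERPINE2. LRP1 encodes the endocytic receptor that takes up complexes of serpins with their proteases, and MRC2 encodes a collagen receptor that associates with the urokinase receptor. LRP1 had 49.0 and 32.9 FPKM in the lentiviral arm of KYSE450 and 144 and 83.6 FPKM in its plasmid arm, against 96.7 and 68.5 FPKM in the lentiviral arm of KYSE70 and 40.2 and 29.9 FPKM in its plasmid arm. Its difference was -2.63 (SE 0.43, adjusted p = 0.0186), and the call was lost in 4 of the 8 fits that left out 1 library, namely either KYSE70 library of the plasmid arm, the KYSE450 overexpression library or the KYSE450 knockdown control (adjusted p = 0.0690 to 0.0924). MRC2 had 15.9 and 7.64 FPKM in the lentiviral arm of KYSE450 and 26.7 and 22.3 FPKM in its plasmid arm, against 33.6 and 35.0 FPKM in the lentiviral arm of KYSE70 and 20.2 and 16.0 FPKM in its plasmid arm. Its difference was -1.97 (SE 0.40, adjusted p = 0.0310), and the call was lost in 5 of the 8 fits, without any library of the plasmid arm or without the KYSE450 knockdown control (adjusted p = 0.0677 to 0.144). Without a filter neither call held (adjusted p = 0.0759 for LRP1 and 0.103 for MRC2).

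Between the arms over both lines, 4 of the 15 wider genes were called, against 27.9% of all genes. VLDLR, another receptor for serpin complexes, was higher in the lentiviral arm by 1.19 (SE 0.16, adjusted p = 0.00277). It had 15.2 and 25.3 FPKM in the lentiviral arm of KYSE450 and 7.19 and 6.14 FPKM in its plasmid arm, and 32.6 and 27.7 FPKM in the lentiviral arm of KYSE70 and 15.6 and 14.4 FPKM in its plasmid arm, without overlap in either line. S100A10, whose product forms a plasminogen-binding complex with annexin A2, was lower, at -0.86 (SE 0.14, adjusted p = 0.00476). S100A10 had 363 and 274 FPKM in the lentiviral arm of KYSE450 and 603 and 565 FPKM in its plasmid arm, and 284 and 374 FPKM in the lentiviral arm of KYSE70 and 551 and 621 FPKM in its plasmid arm. SERPINI1 was also higher in the lentiviral arm (0.44, adjusted p = 0.0167). It had 7.70 and 7.63 FPKM in the lentiviral arm of KYSE450 and 4.15 and 3.86 FPKM in its plasmid arm, with at most 0.301 FPKM in KYSE70. Its call was lost without either overexpression control or without the KYSE70 overexpression library (adjusted p = 0.0650 to 0.0742), and in the fit without a filter (adjusted p = 0.0581). Adding terms for knockdown and overexpression sets the arms against each other at the level of their controls. In that limma fit S100A10 (adjusted p = 0.0599) and SERPINI1 (0.118) lost the call.

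The knockdown comparison asks which of these genes move when NMR is targeted by shRNA. In limma 0 of the 4 tested genes were called, as were 0% of all genes; 1 of the 4, SERPINB5, and 1794 of all 14311 genes had an unadjusted p under 0.05, and voom called 0 of the 4 and 4 genes in all. The largest ratios stood in KYSE70. PLAUR had 5.57 FPKM after knockdown in KYSE450 and 5.60 FPKM in its control, a ratio per depth of 0.996 (95% counting interval 0.794 to 1.25). In KYSE70 it had 9.18 FPKM after knockdown and 16.6 FPKM in its control, a ratio of 0.554 (0.466 to 0.658). Over both lines its log2 difference was -0.40 (SE 0.21, adjusted p = 0.450).

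SERPINB5 was above its control after knockdown in both lines, at ratios of 1.23 in KYSE450 (95% counting interval 1.16 to 1.30) and 1.78 in KYSE70 (1.66 to 1.90). Its log2 difference was 0.55 (SE 0.19), the highest of the 4, with an adjusted p of 0.357. SERPINB2 had 7 reads in the KYSE450 knockdown and 10 in its control, a ratio of 0.909 (0.294 to 2.65). In KYSE70 it had 113 reads after knockdown and 9 in its control, a ratio of 12.6 (6.39 to 28.2). The fit without a filter gave SERPINB2 0.91 (SE 0.47, adjusted p = 0.680). PLAT stood at 0.896 times its control in KYSE450 (0.480 to 1.64) and 2.45 times in KYSE70 (1.38 to 4.50). PLAU stood at 0.763 times its control in KYSE450 (0.605 to 0.960), and SERPINE2 at 0.898 times in KYSE450 and 0.844 times in KYSE70.

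Without either KYSE450 lentiviral library, when the KYSE70 pair alone carried the comparison and was assumed to vary like the overexpression pairs, PLAUR at -0.79 (adjusted p = 0.00397 and 0.00395) and SERPINB5 at 0.82 (adjusted p = 0.00104 and 0.00102) were called. In those fits 4832 and 4833 of all genes were called too. The KYSE70 knockdown library stood apart in other ways: mitochondrial genes held 8.63% of its FPKM, against 3.84% to 5.75% in the other 7 libraries. COL3A1, a fibroblast marker, reached 21.9 FPKM in the KYSE70 knockdown and 3.80 FPKM in its control. The other fibroblast markers did not rise with it. COL1A1 had 30.2 FPKM in that knockdown and 29.2 FPKM in its control, and LUM had 0 and 0.0236 FPKM. DCN, a defining fibroblast marker, was at or near 0 in all libraries. The part of these differences in the KYSE70 values was not tested.

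**Figure D4:**
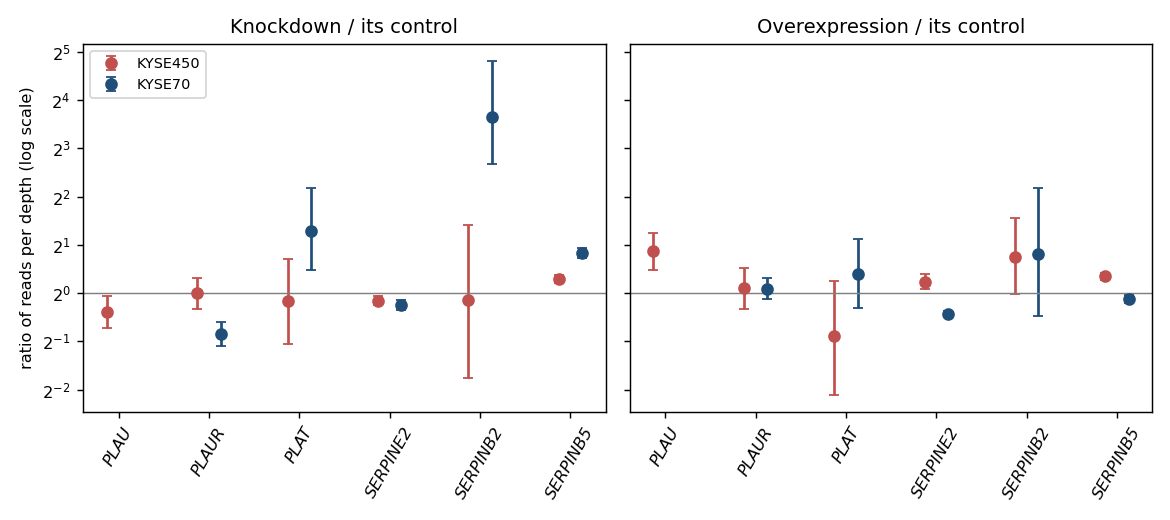
Ratio of reads per depth of the knockdown to its control (left) and of the overexpression to its control (right) for the 6 genes, on a log axis, with KYSE450 in red, KYSE70 in blue and bars for the 95% counting interval; PLAU in KYSE70 has at most 1 read per library and is not drawn. SERPINB2 in the KYSE70 knockdown lies at 12.6, and the ratios of SERPINE2 and SERPINB5 under overexpression lie on opposite sides of 1 in the lines.

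The overexpression comparison asks which of these genes move when NMR is supplied from a plasmid. In limma 0 of the 4 tested genes were called, as were 0% of all genes; 0 of the 4 and 148 of all 14311 genes had an unadjusted p under 0.05, and voom called 0 genes. PLAU in KYSE450 had 175 reads after overexpression and 89 in its control, a ratio of 1.82 (95% counting interval 1.40 to 2.38), with 1 and 0 reads in KYSE70. Its log2 difference over both lines was 0.34 (SE 0.21). SERPINE2 stood at 1.18 times its control in KYSE450 (1.06 to 1.32) and 0.739 times in KYSE70 (0.705 to 0.775). SERPINB5 stood at 1.28 times its control in KYSE450 (1.21 to 1.34) and 0.917 times in KYSE70 (0.862 to 0.977). For both serpins the lines went in opposite directions beyond counting error, and the mean differences were -0.10 (SE 0.18) for SERPINE2 and 0.11 (SE 0.19) for SERPINB5. PLAUR stood at 1.07 times its control in KYSE450 (0.799 to 1.44) and 1.06 times in KYSE70 (0.913 to 1.24). SERPINB2 stood at 1.69 (0.994 to 2.95) in KYSE450 and 1.75 (0.717 to 4.53) in KYSE70, and PLAT at 0.536 (0.231 to 1.19) in KYSE450 and 1.32 (0.802 to 2.19) in KYSE70.

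In the wider list 0 of 15 genes were called by limma and by voom under either manipulation. Under knockdown 2 had an unadjusted p under 0.05, LRP1 among them with 0.53 (SE 0.15, adjusted p = 0.321), and the median log2 difference was -0.04, against -0.002 over all genes. Without either KYSE450 lentiviral library 3 of the 15 were called, beside 33.8% of all genes, and without either KYSE70 lentiviral library 4 of the 15 were called, beside 4.05% and 4.07% of all genes. Under overexpression 1 had an unadjusted p under 0.05, LRP1 with 0.59 (SE 0.15, limma adjusted p = 0.9998). The median was 0.03, against -0.01 over all genes. When overexpression was fitted in its own 4 libraries, 1 of the 15 was called, beside 0.0839% of all genes. LRP1 was above its control in all 4 pairs, at 1.49 times in KYSE450 and 1.41 times in KYSE70 under knockdown, and at 1.72 times in KYSE450 and 1.34 times in KYSE70 under overexpression.

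The clade B cluster places SERPINB5 and SERPINB2 in a wider neighbourhood. It holds 10 SERPINB genes over chr18:63476761-64019779, with 367 kb between the end of SERPINB5 and the start of SERPINB2. SERPINB13 and SERPINB8 were the other genes in it with a mean of at least 1 FPKM. SERPINB13, a squamous serpin, lay between 1.93 and 20.4 FPKM in KYSE450 and between 11.5 and 22.3 FPKM in KYSE70. SERPINB8 lay between 0.557 and 0.952 FPKM in KYSE450 and between 2.13 and 5.13 FPKM in KYSE70, without overlap. Of the 10 genes 6 stood highest, of the 4 KYSE70 libraries, in the knockdown. Among them were the 3 that were tested, beside 40.9% of all genes tested. The untested genes of the cluster lay under a mean of 1 FPKM, several at or near 0, so 40.9% is no like share for 6 of 10. SERPINB10 had 0.823 FPKM in the KYSE70 knockdown and 0.0914 FPKM in its control, but it shares 547 exon bases with SERPINB2 on the same strand, so reads of one may be counted for the other. SERPINB3 and SERPINB4, near-identical copies of each other, were listed near 0 throughout. The sources used here do not say how reads that match both were assigned, so these values may understate their levels.

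**Figure D5:**
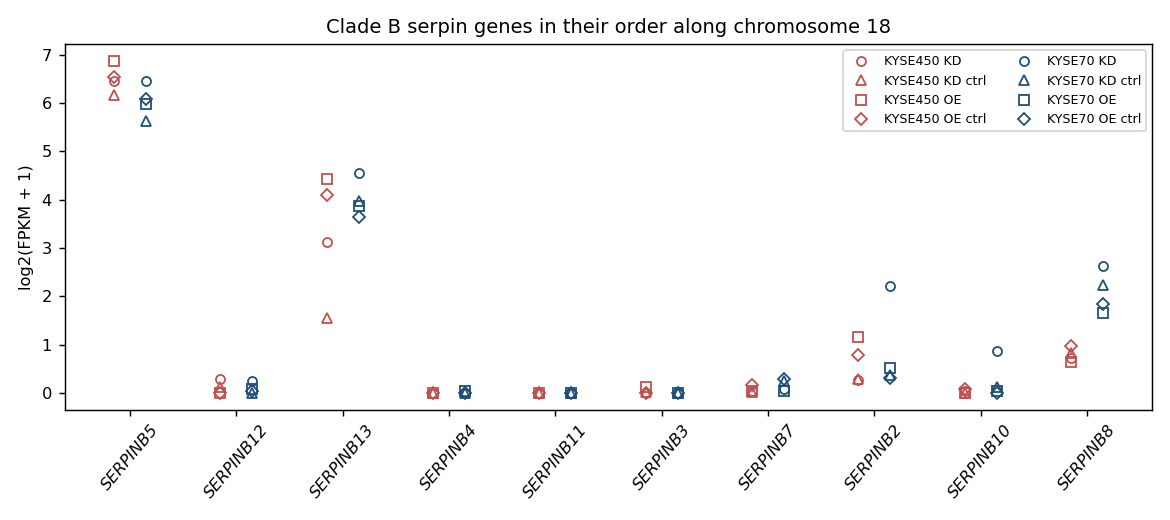
log2(FPKM + 1) of the 10 clade B serpin genes of chromosome 18 in their order along it, with KYSE450 in red, KYSE70 in blue and a marker shape for each group. SERPINB5, SERPINB13 and SERPINB8 are the genes with a mean of at least 1 FPKM, and SERPINB8 is higher in all KYSE70 libraries than in those of KYSE450.

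For each gene tested, the genes most alike over the 8 libraries were sought among 10384 genes with a mean of at least 5 FPKM, by Pearson r on log2(FPKM + 1) after the mean of each line was subtracted; with 8 libraries and this many genes, high values arise readily and are given as a description. PLAU was most like S100A14 (0.901), LAD1 (0.873) and CFLAR (0.870), through the 4 KYSE450 libraries since it was near 0 in KYSE70. PLAUR was most like SLCO3A1 (0.991), NELFE (0.989) and PLEC (0.975). SERPINE2 was most like COA4 (0.989), YBX3 (0.981) and PRSS12 (0.975). PRSS12, the neurotrypsin gene, had 27.2 and 26.1 FPKM in the lentiviral arm of KYSE450 and 13.3 and 12.6 FPKM in its plasmid arm, against 31.2 and 41.8 FPKM in the lentiviral arm of KYSE70 and 43.2 and 55.9 FPKM in its plasmid arm. SERPINB5 was most like C2orf43 (0.975), CEPT1 (0.974) and TMEM43 (0.966).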

How the data were processed

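The authors deposited 1 value per gene and library. No header or label names the unit, and the deposited values were treated as FPKM. TopHat2 2.0.9, HTSeq 0.6.1 and the build hg19 appear in the submitters' processing notes with no role stated; the sources used here give no annotation, filter or strand setting. Within each of 30872 genes above 0 in 2 or more libraries, values were whole multiples of 1 step within 0.02 of a whole number (100.0%). These multiples were taken as the reads. The search went up to high multiples, so a gene above 0 in few libraries would match almost surely. The share of 100.0% therefore does not test the unit or the reads. Intervals from the reads (95%, exact) and floors of 3 reads cover counting error only. Groups came from the titles. limma 3.58.1 (trend, R 4.3.3) was fitted to log2(FPKM + 1) of the 14311 genes whose mean reached 1 FPKM, with Benjamini-Hochberg adjustment over all of them and a threshold of 0.05. Knockdown and overexpression were fitted together with a term for each of the 4 pairs (2 residual degrees of freedom). Line, arm and their difference used the means of the 4 combinations (4 residual degrees of freedom). Replicate 1 is always KYSE70 and replicate 2 KYSE450, so the replicate numbers pair libraries by line, and the pair terms hold that block. The design allowed for counts; its written choice for FPKM was used. Alternatives changed the pseudocount (0.1), filter (none, or 5), scaling (median ratio), model (voom on recovered reads), block and libraries; read ratios and the check for the other line's markers were added after the data were seen. Coordinates come from GENCODE on GRCh38 and promoters from RefSeq (GRCh38.p14). The fits were tested on simulated data. The 6 genes, the wider list, the markers and the tests were chosen with earlier results of these data known. All 6 genes, wider-list genes called in a comparison (up to 5 in each direction) and the 3 genes most like each tested gene are named by rule, except that 1 gene of the wider list, kept in its counts, is not reported here; ratios and cluster neighbours named beside them were chosen after their values were seen.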

Additional observations from a re-analysis of the deposited data

Results flagged for a closer look

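SERPINB2 in KYSE70 had 1 library far from the rest: the knockdown stood at 3.62 FPKM, and on log2(FPKM + 1) its gap to the next library made up 0.896 of the range of the 4 KYSE70 libraries, above the Dixon limit for 4 samples. Chance alone marks about 1 in 20 such groups, and 12 were examined.

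Arm contrasts that differed between the lines by limma were those of SERPINE2 (2.02 on the log2 scale, KYSE450 minus KYSE70), LRP1 (-2.63) and MRC2 (-1.97). For overexpression over its control, SERPINE2 (1.18 in KYSE450 and 0.739 in KYSE70) and SERPINB5 (1.28 in KYSE450 and 0.917 in KYSE70) moved in opposite directions beyond counting error, with 1 pair per line. This difference between the lines was not tested.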

How the results depend on the processing

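The values of single genes kept their direction and their side of the threshold in 205 of 220 refits with other settings; 11 lost a call, 3 gained one and 1 reversed, PLAU in the arm difference between lines, which was -0.12 with voom. When 1 library was left out, 247 of 296 values were kept, 29 lost a call, 9 gained one and 11 reversed. Left-out fits called 0 to 2 of the 4 tested genes for knockdown, 0 to 2 for the arms and 0 to 3 for the arm difference between lines, where the fit without a filter called 0. Without the KYSE70 knockdown control, when 36.6% of all genes were called, the 3 were SERPINE2, PLAUR (0.86, adjusted p = 0.0100) and SERPINB5 (-0.81, adjusted p = 0.0267).

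Values that crossed 0 ran from -0.27 to 0.39 (PLAU) and -0.81 to 0.0018 (SERPINB5) for the arm difference between lines. For the arms they ran from -0.13 to 0.20 (PLAU), -0.011 to 0.38 (PLAUR) and -0.39 to 0.014 (SERPINB5). For overexpression they ran from -0.12 to 0.35 (SERPINB5) and -0.43 to 0.22 (SERPINE2). None of these values was called in the fit reported. The cause of these changes was not tested.

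Over all genes, the arm difference between lines was called for 984, 118 without a filter, 515 at a mean of at least 5 FPKM and 36 to 5244 with 1 library left out. The arms were called for 3999, 1090 with terms for knockdown and overexpression added, and 1628 to 7275 with 1 library left out. With those terms the arms are compared at the level of their controls. Knockdown called 0 genes, 3 at a pseudocount of 0.1, 4 with voom, 37 in its own 4 libraries and 36 to 4833 with 1 left out; overexpression called 0, 12 in its own 4 libraries and 0 to 12 with 1 left out. Without the replicate block, knockdown and overexpression again called 0 of the 4 tested genes. With terms for knockdown and overexpression added, SERPINB5 was called between the lines by limma (adjusted p = 0.0172), so 4 of 4. A library left out leaves 1 pair that is assumed to vary like the other manipulation. Depth limits PLAT, SERPINB2 and PLAU in KYSE70, where differences within the counting intervals were not detectable.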

Other observations

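Some genes of the wider list are given here by value only, chosen after their values were seen. SERPINF2, the gene of the main plasmin inhibitor of blood, was under a mean of 1 FPKM and untested. It had 0.867 and 1.08 FPKM in the lentiviral arm of KYSE450 and 0.778 and 0.672 FPKM in its plasmid arm, and 0.738 and 1.16 FPKM in the lentiviral arm of KYSE70 and 0.238 and 0.186 FPKM in its plasmid arm. SERPINA5, a serpin that inhibits activated protein C and urokinase, was listed at 0 in all 8 libraries. ENO1 and ANXA2, abundant proteins that bind plasminogen at the cell surface besides their other roles, were among the highest of the list, at 2026 to 3232 FPKM and 1275 to 2116 FPKM over all libraries. Neither was called between the lines (adjusted p = 0.219 for ENO1 and 0.252 for ANXA2, limma).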
